A study of Mus musculus with 78 samples.

Results

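The amygdala was compared with the ventral striatum of the same mice. The comparison used the 22 libraries of the 11 mice that had a library of each region, out of 78 libraries from 7 brain regions of 12 mice. Libraries were chosen by the region in their titles and paired by the mouse number. The ventral striatum of mouse 11, a female WT mouse with no amygdala library here, was left out of the paired fits. The series was made to ask how the loss of ACSS2, an enzyme that turns acetate into acetyl-CoA, bears on alcohol drinking. All 11 mice were adult C57BL6/J mice, housed singly, and all had drunk ethanol, so no mouse without ethanol enters any comparison here. The mice went through the drinking-in-the-dark paradigm, which models binges: after 1 week of habituation the mice chose between water and 15% ethanol by volume, for 2 h on each of days 1 to 3 and for 4 h on day 4. In the week after that the ethanol bottle was offered without water. Of the 11 mice, 5 were WT (3 males and 2 females) and 6 were ACSS2 KO (3 males and 3 females). The KO was constitutive, made with CRISPR guides in introns flanking exon 3 to exon 7 of Acss2, so all cells of the KO mice carried it.

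The 2 tissues differ in the origin of their neurons. The ventral striatum, which includes the nucleus accumbens, consists mainly of GABAergic projection neurons that receive dopamine and fall into a direct-pathway class, marked by Drd1, dynorphin and substance P, and an indirect-pathway class, marked by Drd2, Adora2a and enkephalin. Cholinergic interneurons make up a small share of its cells. The amygdala is mixed: its basolateral nuclei hold glutamatergic neurons related to those of cortex, while its central nucleus holds GABAergic neurons of striatal-like origin and its medial nucleus holds neurons that respond to sex steroids. In a dissected piece of tissue, fewer cells of a type and less RNA per cell cannot be told apart.

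The deposited tables hold read counts per gene, given here as CPM, the count scaled to a library total of 1000000. Totals were between 7263067 and 9142592 in the 11 amygdala libraries (median 7929940) and between 5227813 and 6203967 in the 11 ventral striatum libraries (median 5652584), so the ranges did not overlap. A level of 3 counts, taken as the floor, was at 0.328 to 0.413 CPM in amygdala and 0.484 to 0.574 CPM in ventral striatum. The sample-sheet numbers in the labels run in separate blocks for each region, so region and position in the sample sheet cannot be told apart. Acss2 lay between 3.01 and 10.3 CPM in the 12 KO libraries and between 39.8 and 64.9 CPM in the 10 WT libraries, which fits the genotype labels. Xist and Ddx3y matched the labelled sex in all 22 libraries.

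Several libraries stood apart within their region. The label was checked with a list score, the mean of log2(CPM + 0.5) over a marker list. For 12 genes common to striatal projection neurons the score was 8.56 to 9.78 in 9 ventral striatum libraries, but 7.05 in that of mouse 10 and 6.43 in that of mouse 13, against 6.08 to 7.77 in amygdala. Ppp1r1b, which encodes DARPP-32, the phosphatase inhibitor that defines these neurons, was at 76.7 CPM in the ventral striatum of mouse 13 and at 78.7 CPM in its amygdala. The ventral striatum of mouse 13 was also the highest of the 11 for Slc17a6, the vesicular glutamate transporter of thalamus and other subcortical regions (334 CPM), and for the thalamic factor Tcf7l2 (141 CPM). That of mouse 10 was the highest for Slc17a7, the vesicular glutamate transporter of cortex (842 CPM), and the lowest for Chat (3.98 CPM).

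In amygdala, the library of mouse 12 held hypothalamic peptide transcripts: Avp at 912 CPM, Pmch at 534 CPM, Oxt at 123 CPM and Hcrt at 22.9 CPM. It was also the lowest of the amygdala libraries for Slc17a7 (196 CPM, against 740 to 1721 CPM in the others). Pmch reached 145 CPM in the amygdala of mouse 3 and 49.2 CPM in that of mouse 4, and Avp reached 145 CPM in that of mouse 6. Ttr, the transthyretin gene that marks choroid plexus, was at 5234 CPM in the amygdala of mouse 4 and at 8637 CPM in that of mouse 5, against 5.56 to 452 CPM in the other 9. The amygdala of mouse 6 had the highest projection neuron score (7.77) and Ppp1r1b level (524 CPM) of the amygdala libraries. The part that neighbouring tissue has in any result was not tested, and counts are therefore also given without mice 10 and 13, or without mice 10, 12 and 13.

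**Figure D1:**
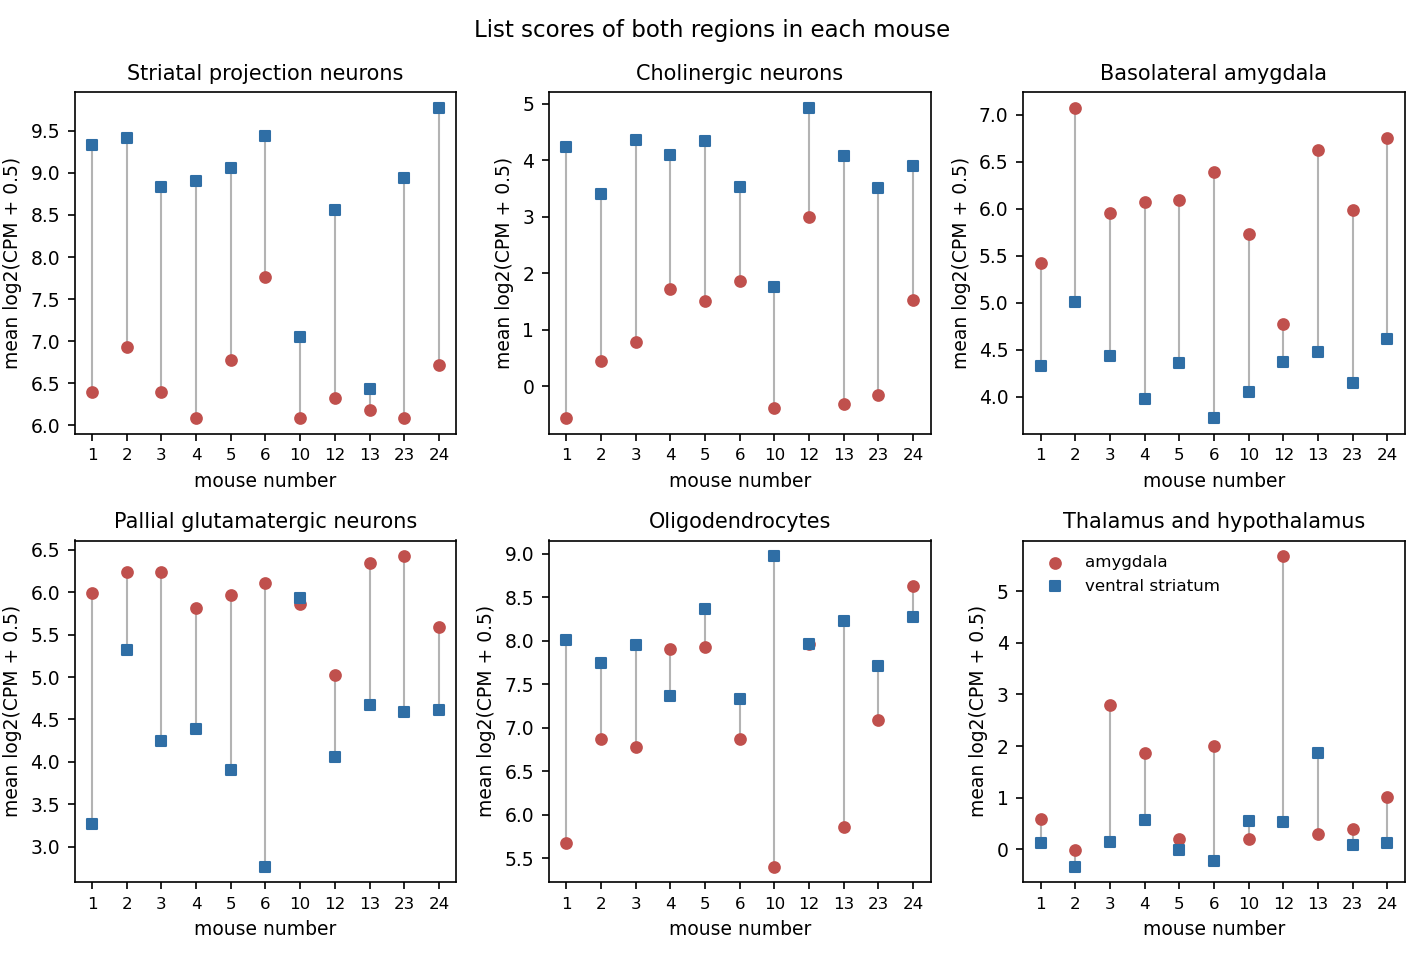
Scores of 6 marker lists in both regions of each mouse, as mean log2(CPM + 0.5); circles are amygdala, squares are ventral striatum and a line joins the libraries of a mouse. The striatal score is higher in the ventral striatum of all 11 mice but nearly equal in mouse 13 (6.43 against 6.19), and the thalamic and hypothalamic score of the amygdala of mouse 12 (5.68) stands above the rest.

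The regions differed widely. With the mouse as a block, 6310 of 13778 genes tested passed an adjusted p of 0.05 in edgeR's quasi-likelihood test (45.8%). Of these, 3346 genes were higher in amygdala (24.3%) and 2964 were higher in ventral striatum (21.5%). Counts of list members called in a direction can be read against these shares of all genes tested. The level was higher in amygdala in every mouse for 1347 genes (9.78%) and higher in ventral striatum in every mouse for 1066 genes (7.74%), shares against which statements on all 11 mice can be read. The median log2 difference over all genes tested, amygdala minus ventral striatum, was 0.01. Fewer genes exceeded a log2 difference of 1 by edgeR's glmTreat: 252 genes (1.83%), of which 146 were higher in amygdala (1.06%) and 106 in ventral striatum (0.769%). Without mice 10 and 13, 6586 genes passed the first test and 384 exceeded a log2 difference of 1 (202 in amygdala and 182 in ventral striatum). In what follows a positive log2 difference means a higher level in amygdala, and each level is the lowest, median and highest of 11 libraries. The error of a log2 difference, used as a standard error, is its size over the square root of the test's F statistic.

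Genes of striatal projection neurons were higher in ventral striatum as a group. All 12 members of the list common to both classes passed the test in that direction, 10 of them beyond a log2 difference of 1, and their median log2 difference was -2.05. Rgs9, the brake on G protein signalling at dopamine and opioid receptors, had 4.15, 21.4 and 79.0 CPM in amygdala and 33.2, 289 and 439.5 CPM in ventral striatum. The log2 difference of Rgs9 was -3.51 ± 0.27 (edgeR adjusted p = 7.02e-07), with the higher level in ventral striatum in all 11 mice. Its ranges overlapped because of the ventral striatum of mice 10 and 13, and the difference was -3.68 without these mice.

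Ppp1r1b was at 56.3, 122 and 524 CPM in amygdala and at 76.7, 1271 and 2623 CPM in ventral striatum. Its log2 difference was -2.86 ± 0.39 (edgeR adjusted p = 5.66e-05) and moved to -3.28 without mice 10 and 13. It was lower in amygdala in 10 of 11 mice, mouse 13 being the exception. The smallest difference in the list was that of Ptpn5, the striatal-enriched phosphatase STEP, at -0.86. Without mice 10 and 13, 12 of 12 members passed, with a median of -2.39. These mice were set apart by their low ventral striatum scores on this same list. Wider differences without them, for Rgs9 and Ppp1r1b too, therefore follow from that choice and are no support.

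Both output pathways took part. Of 7 direct-pathway genes, 6 were higher in ventral striatum and 1 in amygdala (median log2 difference -2.33), and of 6 indirect-pathway genes 5 were higher in ventral striatum (median -3.04). Drd1, the dopamine receptor of the direct pathway, was at 8.64, 17.1 and 66.6 CPM in amygdala and at 18.1, 211 and 345 CPM in ventral striatum (log2 difference -3.08 ± 0.32, edgeR adjusted p = 7.42e-06). Drd2, that of the indirect pathway, was at 2.14, 7.91 and 68.4 CPM in amygdala and at 13.9, 132.5 and 303.5 CPM (log2 difference -3.38 ± 0.35, adjusted p = 6.83e-06). Both were higher in ventral striatum in all 11 mice, although their ranges overlapped.

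Adora2a, the adenosine receptor that is co-expressed with Drd2, showed the widest contrast of the indirect-pathway genes, with medians of 3.15 and 159 CPM and a log2 difference of -3.90 ± 0.52 (edgeR adjusted p = 5.28e-05). Its amygdala levels spread from 0.654 CPM to 114 CPM. Sp9, a transcription factor of the indirect-pathway lineage, gave -0.23 (adjusted p = 0.36) and did not pass. The single direct-pathway gene that was higher in amygdala was Eya1 (0.67 ± 0.17), a transcriptional co-activator, at 4.76, 9.94 and 13.2 CPM against 2.74, 6.17 and 8.96 CPM.

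Of 16 transcription factors of the striatal lineage, 11 were higher in ventral striatum and none in amygdala, with a median log2 difference of -1.105. Rarb, the retinoic acid receptor needed for striatal neurons, was at 6.43, 9.76 and 24.6 CPM in amygdala and at 10.8, 100.0 and 134 CPM in ventral striatum. This is a log2 difference of -2.82 ± 0.27 (edgeR adjusted p = 4.03e-06), in the same direction in all 11 mice. Isl1, the LIM factor of direct-pathway and cholinergic neurons, differed by -2.78 ± 0.42, and Foxp2 by -2.10 ± 0.24, again in all 11 mice. Dlx1 and Dlx2, homeobox factors of most forebrain GABAergic neurons, had log2 differences of 0.55 and 0.60 that did not pass (adjusted p = 0.085 and 0.095). Dlx5 and Dlx6, from the linked pair, were higher in ventral striatum, by -0.64 and -1.56. Enzymes and transporters of GABA itself differed less: Gad1 by -0.62 ± 0.08 and Gad2 by -1.04 ± 0.15, both lower in amygdala in 11 of 11 mice.

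Cholinergic neuron genes showed the largest list median, -3.51, among the lists with 5 or more tested members, and all 5 tested members were higher in ventral striatum. Chat, which makes acetylcholine, was at 0, 2.27 and 11.2 CPM in amygdala and at 3.98, 24.6 and 53.0 CPM in ventral striatum. The log2 difference of Chat was -3.51 ± 0.35 (edgeR adjusted p = 4.85e-06), and Slc5a7, the choline transporter of the same neurons, gave -3.51 ± 0.35 (adjusted p = 4.95e-06). Lhx8, a LIM factor of forebrain cholinergic neurons, was at a median of 2.34 CPM in amygdala and 21.9 CPM in ventral striatum. For Chat, Slc5a7 and Lhx8 the ventral striatum was higher in all 11 mice, mice 10 and 13 included. The amygdala of mouse 12 had the highest Chat level of the 11 amygdala libraries (11.2 CPM).

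Among genes of dopamine signalling, 4 of 6 tested were higher in ventral striatum and none in amygdala: Drd1, Drd2, Drd5 (-1.03 ± 0.24) and Th (-2.28 ± 0.40, edgeR adjusted p = 4.10e-04). Th encodes tyrosine hydroxylase, the first enzyme of dopamine synthesis, and had a median of 2.65 CPM in amygdala and 13.4 CPM in ventral striatum. Drd3, a receptor concentrated in ventral striatum, did not pass the filter on low counts. It lay between 0 and 0.834 CPM in amygdala and between 0.865 and 7.99 CPM in ventral striatum, without overlap, and is given with no test. The dopamine transporter Slc6a3 stayed at or under 1.09 CPM in all 22 libraries and was not tested.

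Genes of glutamatergic neurons showed the opposite pattern. Of 12 genes of pallial glutamatergic neurons, 8 were higher in amygdala and none in ventral striatum, with a median log2 difference of 1.55. Slc17a7, which loads glutamate into vesicles, was at 196, 1209 and 1721 CPM in amygdala and at 31.3, 159 and 842 CPM in ventral striatum. Its log2 difference was 2.58 ± 0.40 (edgeR adjusted p = 1.67e-04), positive in 11 of 11 mice although the ranges overlapped. Neurod2 and Emx1, transcription factors of these neurons, gave 3.21 ± 0.39 and 3.14 ± 0.41 (adjusted p = 2.27e-05 and 4.28e-05). Neurod2 had medians of 73.9 and 3.63 CPM. Slc17a6 (0.63 ± 0.52, adjusted p = 0.35) did not pass.

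Genes enriched in the basolateral amygdala had a larger median, 2.23, with 6 of 7 higher in amygdala. Rspo2, a Wnt pathway agonist that marks a class of basolateral projection neurons, was at 1.79, 17.7 and 52.2 CPM in amygdala and at 0.531, 2.08 and 14.4 CPM in ventral striatum (log2 difference 2.47 ± 0.35, edgeR adjusted p = 8.24e-05). Grp, the gastrin-releasing peptide precursor, gave the largest difference of any list member, 4.10 ± 0.44 (adjusted p = 8.09e-06), with medians of 12.1 and 0.545 CPM, the second close to the floor. Cyp26b1, which degrades retinoic acid, had medians of 43.99 and 5.92 CPM and a log2 difference of 2.89 ± 0.51. Rspo2, Grp and Cyp26b1 were each higher in amygdala in 10 of 11 mice. Fezf2, a factor of deep-layer cortical neurons that came from another list, differed by 2.88 ± 0.31 in 11 of 11 mice. Cdh13 did not pass (-0.08, adjusted p = 0.81).

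Markers of the other amygdalar nuclei were divided. Of 8 central amygdala genes, 3 were higher in amygdala and 2 in ventral striatum. Sst, the somatostatin precursor, was at 162, 243 and 378 CPM in amygdala and at 50.9, 124 and 151 CPM in ventral striatum, with no overlap between the regions. Its log2 difference was 1.38 ± 0.17 (edgeR adjusted p = 3.15e-05). Prkcd, the kinase that defines a large class of central lateral neurons, had a median of 14.5 CPM in each region and a log2 difference of 0.08 ± 0.38 (adjusted p = 0.88). Its range was 6.06 to 51.9 CPM over the amygdala libraries and 9.5 to 43.6 CPM over the ventral striatum libraries. Crh, the corticotropin-releasing hormone precursor, was slightly higher in ventral striatum (-0.67 ± 0.24, adjusted p = 0.035), a call that was lost under 12 of 22 alternatives.

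Of 5 tested genes of the medial amygdala, 2 were higher in each region. Those higher in ventral striatum were Tac1 (-2.01 ± 0.31) and Lhx6 (-0.32 ± 0.09). Esr1, the oestrogen receptor, was at 5.04, 13.3 and 27.98 CPM in amygdala and at 1.40, 2.65 and 19.2 CPM in ventral striatum (log2 difference 1.83 ± 0.26, edgeR adjusted p = 7.11e-05) and was higher in amygdala in all 11 mice. The highest ventral striatum level of Esr1 came from mouse 13. Lhx9 differed by 2.68 ± 0.58 in 10 of 11 mice. The hypothalamic and medial amygdalar factors Otp and Sim1 did not pass the filter and reached 53.6 CPM and 31.4 CPM in the amygdala of mouse 12. In the other amygdala libraries Otp reached at most 10.7 CPM and Sim1 20.03 CPM, both in mouse 6.

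**Figure D2:**
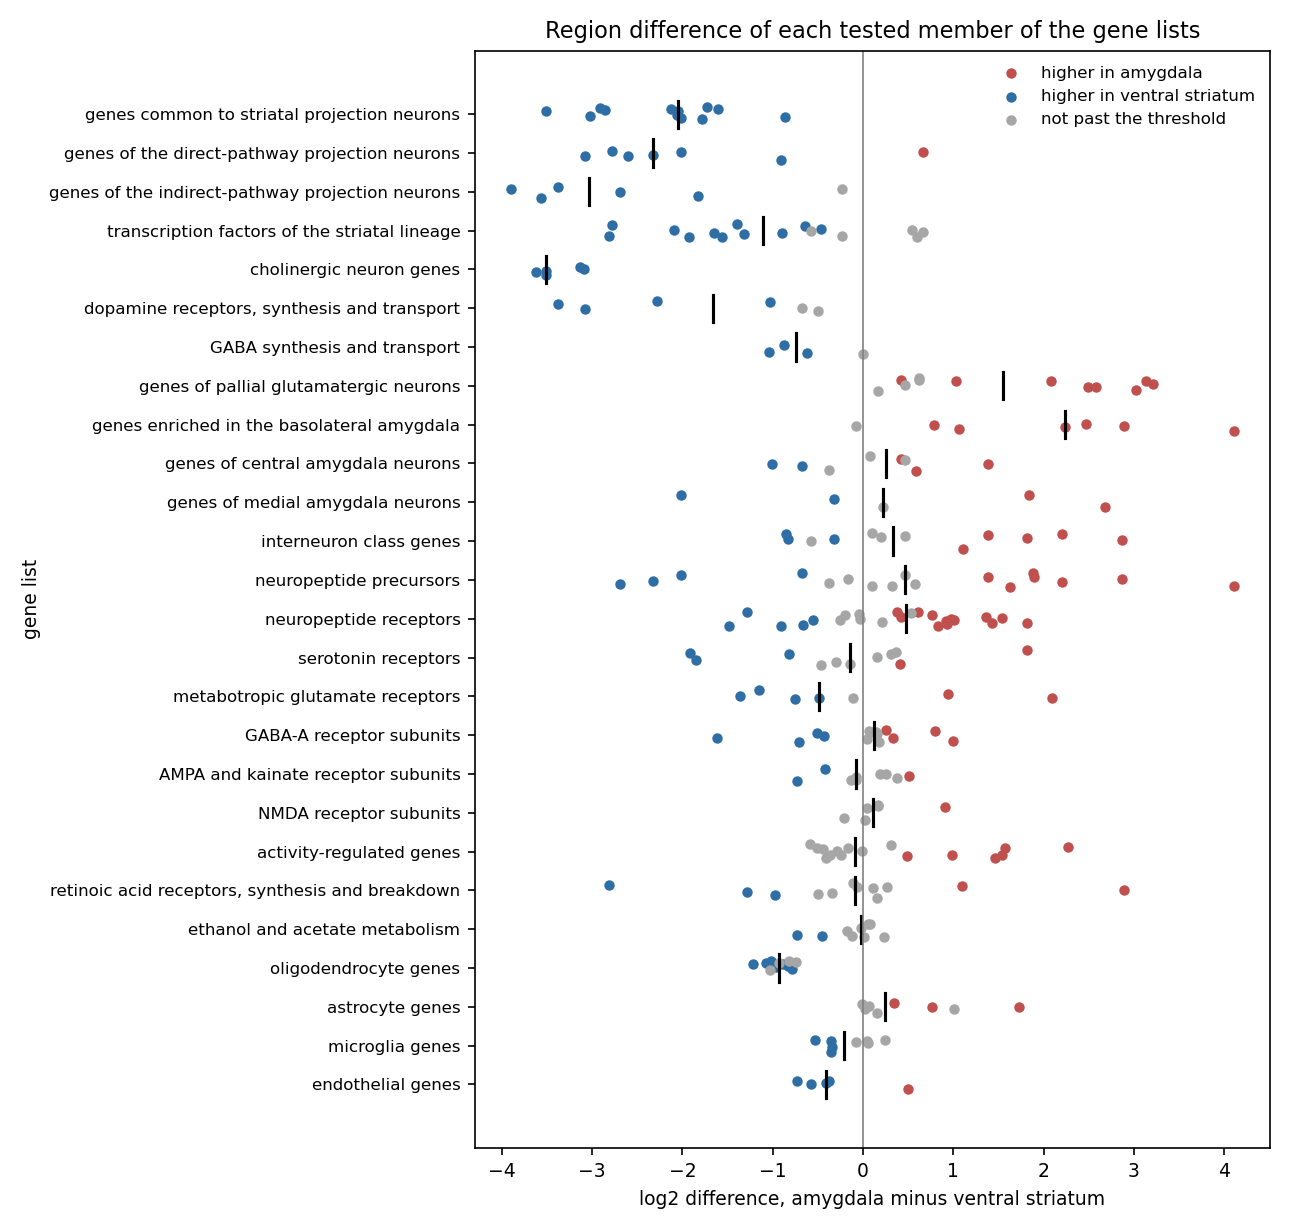
Log2 difference (amygdala minus ventral striatum) of each tested member of 26 gene lists; red points passed edgeR's test as higher in amygdala, blue points as higher in ventral striatum, grey points did not pass, and black bars are list medians. Projection neuron and cholinergic lists lie to the left (medians -2.05 to -3.51) and the pallial and basolateral lists to the right (1.55 and 2.23), while receptor lists spread to both sides.

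Few genes separated the libraries completely. The CPM ranges of the regions did not overlap for 637 of the genes tested (4.62%), 441 of them higher in amygdala (3.2%) and 196 in ventral striatum (1.42%). Among the genes beyond a log2 difference of 1 with a mean of at least 5 CPM and no overlap, the 12 with the largest difference in amygdala were Rpl36, Cdkn1c, Grhl1, Myh7, H1f10, Nr2f1, Lypd1, Zfp853, Dohh, Col23a1, Galnt9 and Unc5a, out of 59 that met these criteria. In ventral striatum 2 met them, Slc17a8 and Epb41. For genes higher in ventral striatum, no overlap depends on the lowest ventral striatum library. That library was from mouse 13 for Ppp1r1b (76.7 CPM), Drd1 (18.05 CPM) and Drd2 (13.9 CPM), for instance. Without mice 10 and 13, 202 genes were beyond a log2 difference of 1 in amygdala and 182 in ventral striatum. Whether the counts of genes without overlap depend on these mice was not tested. Since the 14 genes named here were chosen for not overlapping, that property is no result about them. Each kept its direction and an adjusted p under 0.05 in every alternative fit that tested it, which leaves H1f10 without a value for the offsets for GC content and length. This holds for a difference from 0, not for a log2 difference beyond 2, which 18 genes exceeded over the whole table. The alternatives reuse the libraries that chose the 14 genes, so their kept calls are no independent support.

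Lypd1 (chr1:125867622-125913101, minus strand, GRCm38), a GPI-anchored modulator of nicotinic receptors, was at 243, 539 and 941 CPM in amygdala and at 70.9, 109 and 146 CPM in ventral striatum. Its log2 difference was 2.23 ± 0.20 (edgeR adjusted p = 1.91e-06). Nr2f1 (chr13:78188973-78199757, minus strand), the nuclear receptor COUP-TFI that patterns cortex and amygdala, was at 85.9, 101 and 128 CPM against 8.72, 17.4 and 63.5 CPM, a difference of 2.31 ± 0.21 (adjusted p = 2.67e-06). Myh7, a myosin heavy chain known from heart and slow muscle, was at 25.5, 55.1 and 109 CPM against 6.09, 9.07 and 15.6 CPM (2.49 ± 0.22). Grhl1, a grainyhead-like transcription factor, and Cdkn1c, an inhibitor of cyclin-dependent kinases, gave 2.64 ± 0.17 and 2.72 ± 0.31. Unc5a, a netrin receptor, differed by 1.93 ± 0.15 and Col23a1, a transmembrane collagen, by 1.99 ± 0.19.

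Slc17a8 (chr10:89574020-89621253, minus strand), the vesicular glutamate transporter VGLUT3 that striatal cholinergic neurons also carry, was at 0.784, 2.34 and 7.88 CPM in amygdala and at 7.90, 17.2 and 25.4 CPM in ventral striatum. The difference was -2.62 ± 0.25 (edgeR adjusted p = 3.82e-06). Epb41 (chr4:131923413-132075321, minus strand), the membrane skeleton protein of red cells and neurons, was at 17.5, 29.6 and 39.2 CPM against 45.3, 83.0 and 95.3 CPM (-1.45 ± 0.11, adjusted p = 5.91e-07). Both were lower in the amygdala of all 11 mice.

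Rpl36 (chr17:56613416-56614243, plus strand), which encodes a protein of the large ribosomal subunit, had the smallest p of all genes. It was at 43.5, 62.5 and 74.4 CPM in amygdala and at 5.81, 8.43 and 11.6 CPM in ventral striatum, a log2 difference of 2.89 ± 0.10 (edgeR adjusted p = 1.05e-09). Ribosomal protein genes have near-identical processed copies, and how the authors' counting split such reads is not given in the sources used here, so the level of Rpl36 is uncertain. Over 80 genes of cytosolic ribosomal proteins the median log2 difference was 0.13, with 28 higher in amygdala and 3 in ventral striatum. With offsets for GC content and length these counts were 26 and 10, and the median was 0.09. The linker histone gene H1f10 and Dohh, which modifies the translation factor eIF5A, showed a like pattern: H1f10 differed by 2.40 ± 0.13 and Dohh by 2.01 ± 0.14. Exonic GC content is 60.8% for Rpl36 and 62.5% for Dohh, against a median of 49.7% over genes tested. With offsets for GC content and length the differences were 2.36 for Rpl36 and 1.47 for Dohh, and both still passed. H1f10 had no match by symbol in the annotation used, so it has no value with offsets.

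**Figure D3:**
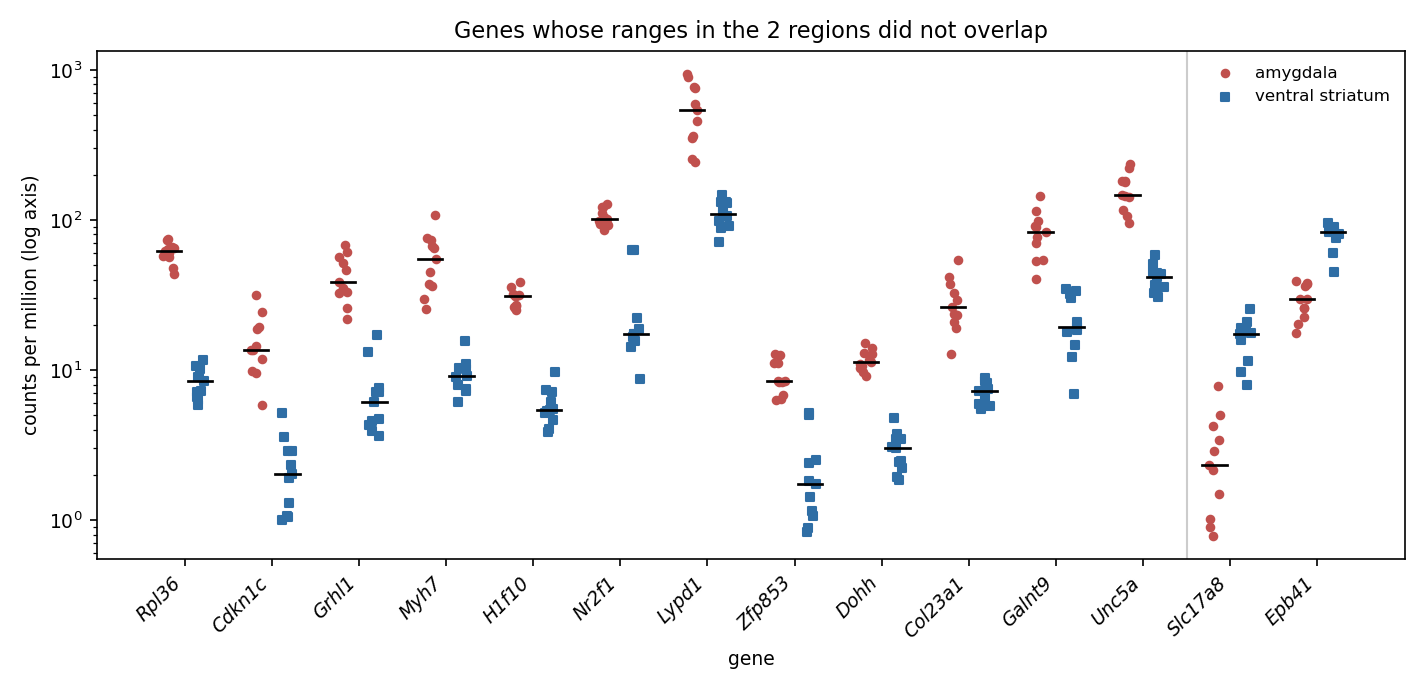
Level of 14 genes in each library, in CPM on a log axis; circles are the 11 amygdala libraries, squares the 11 ventral striatum libraries and black bars the medians. The genes were chosen because the regions do not overlap, for instance Rpl36 at 43.5 to 74.4 CPM against 5.81 to 11.6 CPM, and the last 2 genes are those higher in ventral striatum.

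The other 5 regions of the same series place these differences. For the 146 genes beyond a log2 difference of 1 in amygdala, the mean level over libraries was highest in amygdala for 56 genes (38.4%, against 12.7% of all genes tested). It was highest in cortex for 28, in dorsal hippocampus for 26, in prefrontal cortex for 23 and in ventral hippocampus for 13, and in neither striatal region for any. Only 11 of these genes had over 2 times the ventral striatum mean in dorsal striatum, against 120 in prefrontal cortex and 121 in ventral hippocampus. For the 106 genes higher in ventral striatum, the mean was highest in dorsal striatum for 65 genes (61.3%, against 14.7% of all genes tested) and in ventral striatum for 38 (35.8%, against 18.6%). Of these genes, 102 had over 2 times the amygdala mean in dorsal striatum, against 9 in cortex. These counts are descriptions with no test, since the amygdala and ventral striatum libraries chose the genes. That choice favours the region with the higher level, so the shares of all genes tested are no neutral baseline. The means rest on 8 libraries in prefrontal cortex and on 11 or 12 in each other region.

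Lypd1 was highest in amygdala, with a mean of 560 CPM against 184 CPM in prefrontal cortex, the next highest, and 53.9 CPM in cortex. Cyp26b1 was likewise highest in amygdala (68.6 CPM), followed by dorsal hippocampus (19.4 CPM), and Esr1 (14.6 CPM) was followed by prefrontal cortex (6.70 CPM). Other genes were shared with most regions. Rpl36 had means of 48.6 to 76.7 CPM in the 5 regions outside the striatum and of 7.42 CPM in dorsal and 8.28 CPM in ventral striatum, the latter over 12 libraries. H1f10 (26.8 to 33.7 CPM against 4.62 and 5.6 CPM) and Dohh (9.91 to 14.8 CPM against 2.33 and 2.98 CPM) were also low in both striatal regions. Within the striatum, Pdyn had means of 161 CPM in the ventral and 71.9 CPM in the dorsal region, and Chat 25.9 and 17.6 CPM, while Drd2 had 129 and 168 CPM.

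**Figure D4:**
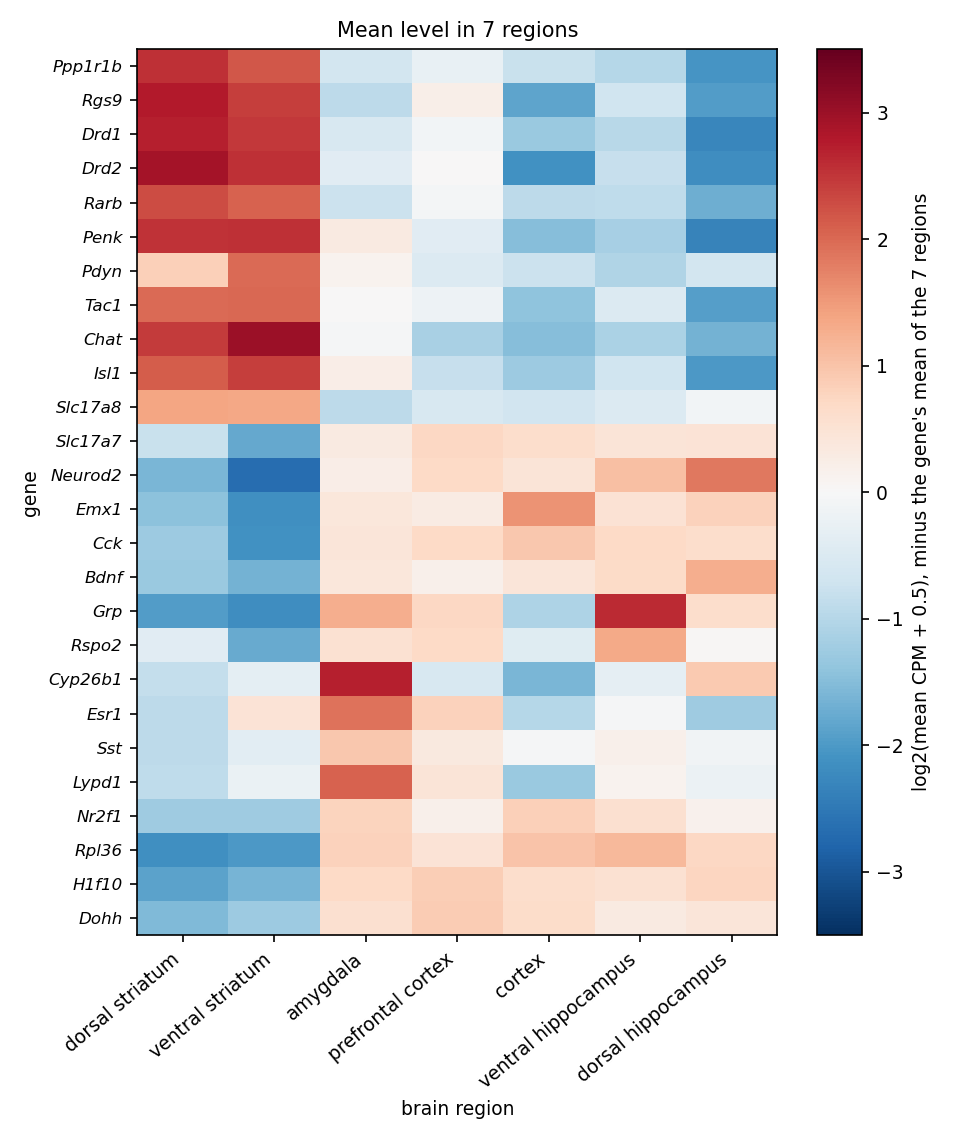
Mean level of 26 genes in the 7 regions, as log2(mean CPM + 0.5) minus the gene's mean over regions; red is above and blue below that mean. The upper rows are high in both striatal regions, Cyp26b1 (68.6 CPM in amygdala) and Lypd1 (560 CPM) are highest in amygdala, and Rpl36, H1f10 and Dohh are low in both striatal regions alone among the 7.

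Neuropeptide precursors split by region. Of 17 tested, 7 were higher in amygdala and 4 in ventral striatum, against 24.3% and 21.5% of all genes tested. The 3 opioid and tachykinin precursors of striatal output neurons were higher in ventral striatum: Penk was at 30.97, 154 and 862.6 CPM in amygdala and at 149.6, 1263 and 2077 CPM in ventral striatum (log2 difference -2.69 ± 0.34, edgeR adjusted p = 3.16e-05). Pdyn gave -2.33 ± 0.39 (adjusted p = 3.03e-04) and Tac1, the substance P precursor, -2.01 ± 0.31 (adjusted p = 1.53e-04). In amygdala, Cck, the cholecystokinin precursor, was at 70.9, 184 and 256 CPM against 6.50, 15.7 and 90.5 CPM (2.87 ± 0.29, adjusted p = 5.89e-06). Vip gave 2.20 ± 0.36, Cort, the cortistatin precursor, 1.89 ± 0.25, and Pnoc, the nociceptin precursor, 1.62 ± 0.38. Npy (0.10, adjusted p = 0.65), Nts (-0.38, adjusted p = 0.44) and Cartpt (-0.16, adjusted p = 0.70) did not pass.

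Several of these peptide genes are known targets of CREB, the factor activated by cyclic AMP, which binds the palindrome TGACGTCA or its core TGACG. The promoters of 2 genes that were higher in amygdala, Sst and Vip, and of 1 that was higher in ventral striatum, Tac1, are shown for this motif. Each is a window of 300 bases around the gene's start from RefSeq (GRCm38.p6), read 5′ to 3′ on the gene's strand, with matches to either strand of the motif in capitals. Sst lies at chr16:23890795-23891094 on the minus strand, Vip at chr10:5638968-5639267 and Tac1 at chr6:7554811-7555110 on the plus strand.
Sst: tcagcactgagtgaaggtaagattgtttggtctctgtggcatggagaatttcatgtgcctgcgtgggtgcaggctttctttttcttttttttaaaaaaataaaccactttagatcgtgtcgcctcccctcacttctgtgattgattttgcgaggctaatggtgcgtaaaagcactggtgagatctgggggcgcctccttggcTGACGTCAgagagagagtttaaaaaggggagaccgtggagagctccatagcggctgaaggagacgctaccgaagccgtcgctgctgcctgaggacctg
Vip: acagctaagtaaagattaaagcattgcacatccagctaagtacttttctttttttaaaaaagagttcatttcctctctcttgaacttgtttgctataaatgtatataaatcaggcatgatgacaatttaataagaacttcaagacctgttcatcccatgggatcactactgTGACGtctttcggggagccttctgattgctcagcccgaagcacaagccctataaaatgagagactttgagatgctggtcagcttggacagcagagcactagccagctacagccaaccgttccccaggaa
Tac1: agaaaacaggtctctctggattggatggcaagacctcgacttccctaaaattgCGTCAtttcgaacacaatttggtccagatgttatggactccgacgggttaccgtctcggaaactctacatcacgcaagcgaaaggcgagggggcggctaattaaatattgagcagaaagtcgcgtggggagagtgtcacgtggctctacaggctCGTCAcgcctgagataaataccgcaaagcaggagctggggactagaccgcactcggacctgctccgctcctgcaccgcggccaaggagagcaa

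Sst held the full palindrome, in which cores on both strands overlap, Vip held 1 core and Tac1 held 2 cores on the other strand (CGTCA). The palindrome was found in 588 of 32851 promoters of this length (1.79%) and the core on either strand in 20.8% of them. Of the 16 neuropeptide genes matched to a promoter, 2 held the palindrome (Sst and Cartpt) and 10 held the core. Sst (1.38) and Cartpt (-0.16) thus share the palindrome without sharing a difference between the regions. A match describes letters in the window and says nothing of binding.

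Receptors for neuropeptides were more often higher in amygdala: 13 of 24 tested, against 5 in ventral striatum, with a median log2 difference of 0.48. Somatostatin receptors, like the Sst precursor, were higher in amygdala. Sstr3 was at 17.96, 35.5 and 37.4 CPM in amygdala and at 1.59, 9.12 and 20.1 CPM in ventral striatum (1.81 ± 0.26, edgeR adjusted p = 8.97e-05), Sstr2 gave 1.53 ± 0.21 and Sstr1 1.36 ± 0.24, and all 3 were higher in amygdala in 11 of 11 mice. Crhr2, Oxtr, Ntsr1 and Cckbr, receptors for urocortins, oxytocin, neurotensin and cholecystokinin, gave 1.00, 1.43, 0.92 and 0.98. Opioid receptors went the other way: Oprk1, the dynorphin receptor, by -1.49 ± 0.22 (adjusted p = 1.13e-04), Oprm1 by -0.91 and Oprd1 by -0.55. The Oprd1 call was lost under 6 of 22 alternatives, namely without mouse 3, 4, 5, 12 or 24 and in males alone (log2 difference -0.83 to -0.33 over the 22). Tacr1, the substance P receptor, was higher in ventral striatum in all 11 mice (-1.29 ± 0.22). The nociceptin receptor Oprl1 was higher in amygdala (0.37).

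Among interneuron class genes, 5 of 12 were higher in amygdala and 3 in ventral striatum. Apart from Sst, Vip and Cck, those higher in amygdala were Htr3a, the ionotropic serotonin receptor of Vip and Cck interneurons (1.81 ± 0.17, edgeR adjusted p = 2.68e-06, higher in all 11 mice), and Calb2 (1.11, adjusted p = 0.030). Lamp5 (-0.85 ± 0.27), Reln (-0.83 ± 0.31) and Lhx6 (-0.32 ± 0.09) were higher in ventral striatum. The Reln call was lost under 9 of 22 alternatives. Pvalb did not pass (-0.57, adjusted p = 0.30). Of 11 serotonin receptor genes tested, 2 were higher in amygdala and 3 in ventral striatum, against 24.3% and 21.5% of all genes tested. Htr1b, an autoreceptor and heteroreceptor on striatal terminals, was at 10.7, 18.6 and 46.4 CPM in amygdala and at 18.7, 83.0 and 137 CPM in ventral striatum (-1.84 ± 0.24, adjusted p = 3.75e-05). Htr1d gave -1.92 ± 0.23 and Htr2a -0.82, and Htr1b and Htr1d were lower in the amygdala of all 11 mice.

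Receptors of the main fast transmitters varied by subunit. Of 14 GABA-A subunits, 4 were higher in each region, near the shares of all genes tested (24.3% in amygdala and 21.5% in ventral striatum). Gabra3 was at 119.8, 223 and 308 CPM in amygdala and at 61.4, 107 and 202 CPM in ventral striatum (0.99 ± 0.15, edgeR adjusted p = 1.29e-04). Gabra5 gave 0.80 ± 0.14, and both were higher in amygdala in 11 of 11 mice. Gabrd, the subunit of extrasynaptic receptors sensitive to neurosteroids, was higher in ventral striatum (-1.62 ± 0.33, adjusted p = 0.0014), in 10 of 11 mice. Of 9 AMPA and kainate subunits 1 was higher in amygdala and 2 in ventral striatum, and the AMPA subunits Gria1, Gria2, Gria3 and Gria4 did not pass (-0.08 to 0.26). Of 6 NMDA subunits, Grin3a alone passed (0.91 ± 0.18, in 11 of 11 mice). Metabotropic receptors spread wider: Grm2, a presynaptic receptor of glutamatergic terminals, gave 2.10 ± 0.43, whereas Grm3 and Grm4 gave -1.15 ± 0.10 and -1.36 ± 0.18, the latter pair lower in the amygdala of all 11 mice.

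Of 16 activity-regulated genes, 6 were higher in amygdala and none in ventral striatum. Bdnf, the neurotrophin, was at 15.8, 31.98 and 42.2 CPM in amygdala and at 0.885, 5.55 and 18.5 CPM in ventral striatum (2.27 ± 0.35, edgeR adjusted p = 1.44e-04), and was higher in amygdala in all 11 mice. Nr4a3 gave 1.57 ± 0.24 and Ier2 1.54 ± 0.21. The immediate early genes Fos (0.32, adjusted p = 0.14), Arc (-0.01, adjusted p = 0.97) and Npas4 (-0.41, adjusted p = 0.16) did not pass. Without mice 10 and 13 the count for this list was 5 in amygdala and 5 in ventral striatum. The median of the list was -0.09, of opposite sign to its count of calls.

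Genes that handle ethanol and acetate differed little. Of 9 tested, 2 were higher in ventral striatum, near the 21.5% of all genes tested, and none in amygdala. The median log2 difference was -0.03. Acss2 itself gave 0.08 ± 0.13 (edgeR adjusted p = 0.63) over both genotypes, and Acss1, its mitochondrial counterpart, 0.06. Acly, which makes acetyl-CoA from citrate, was at 181, 208 and 227 CPM in amygdala and at 206, 359 and 539 CPM in ventral striatum (-0.73 ± 0.11, adjusted p = 9.57e-05), lower in amygdala in 10 of 11 mice. Aldh2, which oxidises acetaldehyde, gave -0.18 (adjusted p = 0.24) and Cat, the catalase gene, 0.24 (adjusted p = 0.069). In the retinoid list, Cyp26b1 (2.89) and Rara (1.099 ± 0.12) were higher in amygdala, and Rarb, Crabp1 (-1.28) and Rxrg (-0.97) in ventral striatum.

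Glial and vascular genes were tested as markers of tissue makeup. Of 11 oligodendrocyte genes, 7 were higher in ventral striatum and none in amygdala (median -0.93). Mal, a myelin proteolipid, was at 49.0, 162 and 527 CPM in amygdala and at 244, 372 and 791 CPM in ventral striatum (-1.22 ± 0.35, edgeR adjusted p = 0.0113). This count varied with the mice in the fit: 10 of 11 passed in the 6 males alone (median -1.76) and 0 of 11 in the 5 females alone (median -0.13). On this list mice 1, 10 and 13, all males, scored 5.40 to 5.87 in amygdala and 8.02 to 8.98 in ventral striatum. Mice 4 and 24, both females, scored higher in amygdala. The ventral striatum of mice 10 and 13 stood apart for other markers as well, so sex and such libraries cannot be told apart here. In WT and in KO mice alone 0 of 11 passed (medians -0.70 and -1.104), and without mouse 1, 2, 3 or 13, 4 of 11 did. The test of region by sex called 0 genes in edgeR and 109 in DESeq2's Wald test, as given with the genotypes.

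Of 8 astrocyte genes, 3 were higher in amygdala, among them Gfap (1.73 ± 0.34, edgeR adjusted p = 0.0011), which was at 31.4, 206 and 397 CPM against 21.2, 56.5 and 156 CPM. The transporter genes Slc1a2 (0.02) and Slc1a3 (0.15), carried by nearly all astrocytes, did not pass. Of 8 microglia genes 4 were higher in ventral striatum, with Aif1 the widest at -0.53. Of 5 endothelial genes 4 were higher in ventral striatum, with Flt1 at -0.73 ± 0.08 in all 11 mice, and Cldn5 was higher in amygdala (0.50 ± 0.08), though not with offsets for GC content and length (0.03, adjusted p = 0.80). Choroid plexus genes rested on few libraries: Kl passed (1.47 ± 0.50) but not without mouse 5 (1.098) or mouse 24 (1.41), and Ttr (2.89 ± 1.2, adjusted p = 0.072) did not.

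In the 5 WT mice alone, 2210 of 13860 genes passed edgeR's test (15.9%), 1313 higher in amygdala (9.47%) and 897 in ventral striatum (6.47%), and 45 exceeded a log2 difference of 1 (0.325%). Of the projection neuron genes, 11 of 12 were higher in ventral striatum in WT mice, as were 5 of 6 cholinergic genes, and 5 of 7 basolateral genes were higher in amygdala. Other lists lost calls in this smaller fit: 3 of 7 direct-pathway genes were higher in ventral striatum, against 6 over all mice, and 7 of 16 striatal transcription factors, against 11. None of the 8 microglia or 11 oligodendrocyte genes passed in WT mice. Rgs9 gave -3.62 ± 0.47 (edgeR adjusted p = 0.0058), Drd2 -3.66 ± 0.50 (adjusted p = 0.0067), Chat -3.54 ± 0.42 (adjusted p = 0.0047) and Slc17a7 2.19 ± 0.42 (adjusted p = 0.017). Cyp26b1 (3.05 ± 0.32), Cck (2.76 ± 0.28) and Rpl36 (2.86 ± 0.15) passed as well. Pdyn (-1.87 ± 0.59, adjusted p = 0.072), Tac1 (-1.99 ± 0.56, adjusted p = 0.052) and Th (-2.13 ± 0.70, adjusted p = 0.078) did not. This fit depended on mouse 3, without which 260 genes passed. Without mouse 12, 1252 genes passed, and without mouse 23, 1033.

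In the 6 KO mice alone, 4263 of 13824 genes passed (30.8%), 2349 higher in amygdala (17%) and 1914 in ventral striatum (13.8%), and 203 exceeded a log2 difference of 1 (1.47%). The latter count was 83 to 123 when mouse 1, 2, 4, 5 or 6 was left out and 329 without mouse 10. The WT and KO mice are different animals, so the fits share no library. In both fits, however, region goes with position in the sample sheet and with depth. A shared direction therefore cannot be told apart from a shared effect of these. Over 13643 genes tested in both, 1819 passed in both, which is 82.8% of the 2198 passing in WT and 43.15% of the 4216 passing in KO, and all 1819 had the same direction. Of the WT calls, 99.6% had the same direction in KO mice, against 82.3% of all genes tested in both. Drd1 gave -2.97 in WT and -3.17 in KO mice, Slc17a8 gave -3.04 and -2.32, and Sst gave 1.41 and 1.35. Each of these passed in both genotypes.

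The difference between genotypes was then tested itself. The interaction of region with genotype called 0 of 14623 genes in edgeR's quasi-likelihood test (0%), with 465 genes at an unadjusted p under 0.05, and DESeq2's Wald test also called 0. Data were simulated with these library sizes and the fitted dispersions. There the same test found 84 of 100 genes whose regional difference itself differed by 2 on the log2 scale. It found 52 of 99 that differed by 1. The simulation held no mouse effect, no regional difference beside the interaction and no libraries that stood apart. The rate in the real data was not tested and may be lower. The interaction of region with sex called 0 of 14623 genes by edgeR (0%), with 2141 at an unadjusted p under 0.05. Its smallest adjusted p was 0.0816 in edgeR, whereas DESeq2's Wald test called 109. If no gene differed, a share of 0.05 of the genes would be at an unadjusted p under 0.05. The genotype count of 465 lies below that share and the sex count of 2141 above it. Genes share their libraries, so these counts are descriptions. In separate fits, 3687 genes passed in the 6 males and 4852 in the 5 females. Of the mice with libraries that stood apart, 10, 12 and 13 are male, and 4 and 5, high in Ttr, are female. Sex and such libraries cannot be told apart in these fits. For region by sex, 1420 genes were at an unadjusted p under 0.05 in edgeR's test without mice 10 and 13. Without mice 10, 12 and 13 there were 1280, and without mouse 4 alone 1610. Slc17a8 differed by -3.30 in males and -2.04 in females, and Rpl36 by 2.90 and 2.84.

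**Figure D5:**
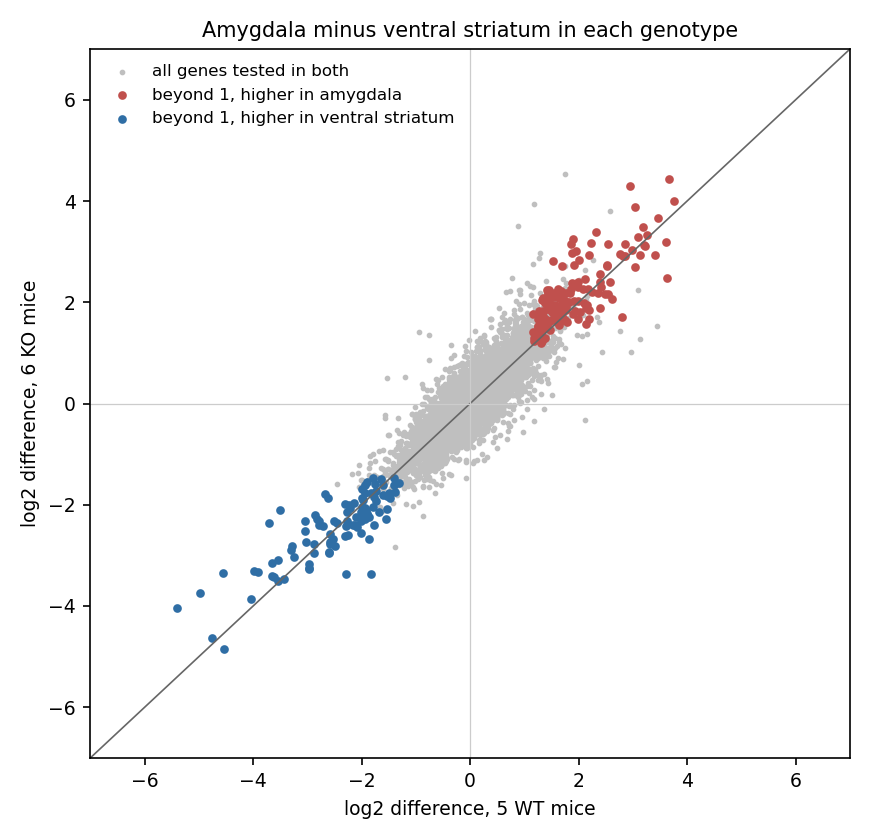
Log2 difference (amygdala minus ventral striatum) of each gene in the 5 WT mice (x axis) and in the 6 KO mice (y axis), with the line of equality; coloured points are genes beyond a log2 difference of 1 over all 11 mice. Coloured points lie on the same side of 0 in both genotypes, as with Sst at 1.41 and 1.35. The same 11 mice chose these genes, so their shared side is no independent result. No gene passed the test of region by genotype.

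Base composition moved with region. Across 13593 genes with an annotated length, the log2 difference had a Spearman correlation of 0.27 with exonic GC content and of -0.22 with exonic length; genes share their libraries, so these are descriptions. Genes higher in amygdala had a median GC content of 53.8% and those higher in ventral striatum 47.95%. Each amygdala library had a positive correlation of its deviations with GC content (0.02 to 0.36) and each ventral striatum library a negative one (-0.35 to -0.02). With offsets for GC content and length, 5774 genes passed. Of the 6310 genes called without offsets, 6231 could be tested with them and 4860 of these passed. Of the 146 genes beyond a log2 difference of 1 in amygdala, 143 could be tested with offsets, all 143 passed and 94 stayed beyond 1. Of the 106 in ventral striatum, 105 could be tested, all 105 passed and 99 stayed beyond 1.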

How the data were processed

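Poly(A) RNA was sequenced, and the deposited files are 2 tables of read counts per gene symbol, 1 for each sex per the labels, which hold whole numbers as the authors counted them. Per the submitters' processing notes the authors used STAR 2.5.2a, SAMtools 1.1, HTSeq 0.6.1, DESeq2 and R 4.0.2 on GRCm38 (mm10); counting options such as strand are not given in the sources used here. Each library started from 300 ng of RNA, per the labels' protocols. All 55367 symbols of both tables were joined by name.

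Regions were compared with edgeR 4.0.16 in R 4.3.3: TMM normalization, filterByExpr by region (minimum count 10, minimum total 15), and the quasi-likelihood test with the mouse number as a block. P-values were adjusted by Benjamini-Hochberg over all genes tested, with 0.05 as threshold; glmTreat tested against a log2 difference of 1. The pairing comes from the mouse numbers in the labels: deviations of the regions of a mouse from their group means had a mean correlation of 0.15 over 11 mice, against -0.01 for different mice. The labels call the samples biological replicates, and no pair of libraries matched within sampling noise (at least 5.07 chi-square per gene over 20 pairs). Region by genotype and region by sex were interaction terms in a fit of all libraries. Low-depth limits and floors cover counting error only.

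The gene lists and the pair of regions were chosen with earlier results of these data known. Genes named without a list were the largest differences, up to 12 a direction, among genes beyond a log2 difference of 1 with a mean of at least 5 CPM and no overlap between regions; in each list, up to 4 members a direction with the smallest p were named, and defining markers. Other members are given by value. Gene positions are from GENCODE M21 (GRCm38), which held 53186 of the symbols; promoters are from RefSeq (GRCm38.p6). Alternatives were DESeq2 1.42.0 and its size factors, no filter, no block, thinning to 5227813 counts, single sexes and each mouse left out; GC and length offsets (loess, span 0.5) and leaving out mice 10 and 13, or 10, 12 and 13, were chosen after seeing the data. On simulated data with 200 changed genes, the paired fit called 86 of 100 genes changed by 1 and 100 of 100 changed by 2 on the log2 scale, with 10 false calls. The simulated data held no mouse effect and no libraries that stood apart, so these rates may not hold for the real data.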

Additional observations from a re-analysis of the deposited data

How the results depend on the processing

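The count of 6310 genes between the regions lay between 5691 and 6368 when each mouse was left out and was 3687 in males alone. The 252 genes beyond a log2 difference of 1 lay between 214 and 289 with a mouse left out. They became 463 without the filter on low counts, 18 against a log2 difference of 2, 384 without mice 10 and 13, 427 without mice 10, 12 and 13, and 74 in males alone. In WT mice the 2210 calls ranged from 260 to 2511 with a mouse left out, and the 45 beyond 1 from 5 to 125; the latter were 170 without the filter and 20 with GC and length offsets. In KO mice the 203 beyond 1 ranged from 83 to 329 with a mouse left out and were 388 without the filter. The count of 0 for region by sex became 101 without the filter and 109 with DESeq2's Wald test, and ranged from 0 to 4 with a mouse left out; the count of 0 for region by genotype was 0 under each alternative run.

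Without the replicate block that pairs the regions of a mouse, 6450 genes passed (3395 in amygdala and 3055 in ventral striatum), and those beyond 1 were 225 over all mice, 15 in WT and 130 in KO mice. The 14 genes named for not overlapping kept their direction and call in all 307 alternative values, which reuse the libraries that chose them. Of 2569 such values for 117 list genes and markers, 2413 kept direction and side of the threshold, 152 lost a call and 4 changed sign, all of Prkcd, which was not called: it ranged from -0.15 to 0.32 with a mouse left out, below 0 without mice 2, 6 or 24, and was -0.50 in males alone. The cause of these changes was not tested. The lower depth of ventral striatum limits genes near 0.5 CPM, where a fold between regions is least certain.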

Other observations

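The ventral striatum library of mouse 11, a female WT mouse, entered no paired comparison. It held Ppp1r1b at 350 CPM, Drd1 at 69.8 CPM and Drd2 at 45.4 CPM, and Chat at 31.3 CPM. Its Ppp1r1b level was lower than in the ventral striatum of 9 of the 11 paired mice. Slc17a7 was at 65.2 CPM, Slc17a8 at 12.7 CPM and Lypd1 at 152 CPM. Rpl36 at 7.57 CPM lay within the range of the paired ventral striatum libraries, and H1f10 at 3.09 CPM lay below theirs (3.88 to 9.62 CPM).

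Some genes outside the lists, named after their values were seen, differed as strongly as the markers. Bhlhe22, a transcription factor of pallial neurons, was at 28.6, 82.5 and 262 CPM in amygdala and at 2.65, 4.05 and 39.4 CPM in ventral striatum (lowest, median and highest of 11), a log2 difference of 3.90 ± 0.24 (edgeR adjusted p = 1.51e-07). C1ql3, a secreted synaptic organizer, gave 3.58 ± 0.26 (edgeR adjusted p = 4.61e-07). Both were higher in amygdala in 11 of 11 mice, although the ranges overlapped. In the list of hippocampal field genes, C1ql2 was higher in amygdala (1.62) and Wfs1 in ventral striatum (-1.07), and Fibcd1 reached 355 CPM in an amygdala library whose group had a median of 11.2 CPM.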
